A study of Saccharomyces cerevisiae BY4741 with 22 samples.

Results

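The 3' ends of 18S rRNA were compared between yeast cells expressing Pno1-KKKF with Dim1-E85A and yeast cells expressing Rps14 with Dim1, in 5 of the 22 libraries of the series. The members are all 18S libraries of these 2 strains that came from cultures at 25 °C and were ligated to a linker holding a unique molecular identifier (UMI): Pno1-KKKF + Dim1-E85A replicates 6 to 8 and Rps14 + Dim1 replicates 1 and 2. The series holds 18 libraries of 18S rRNA in all. A further 3 libraries of the same protocol, from cells expressing unmutated Pno1 with Dim1-E85A (replicates 6 to 8), are given beside them for context.

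All strains were built in BY4741, a common laboratory strain of Saccharomyces cerevisiae. Pno1-KKKF + Dim1-E85A cells carried Pno1 and Dim1 behind a galactose promoter (Gal::Pno1 and Gal::Dim1), with a second copy of each made as Pno1-KKKF from the TEF promoter and as Dim1-E85A from the Cyc1 promoter. Pno1 + Dim1-E85A cells were built alike, with TEF::Pno1 in place of the KKKF form. Rps14 + Dim1 cells carried Gal::Rps14 and Gal::Dim1, with TEF::Rps14 and Cyc1::Dim1 as the second copies. All were grown for 8 doublings in YPD, a glucose medium in which galactose promoters are shut off, and all 8 libraries were cleaned up on AMPure XP beads. The labels describe the Pno1-KKKF strain as a Rio1 bypass condition and the Rps14 strain as a control for Dim1. The strains differ in Pno1, in Dim1 and in which proteins stood behind the galactose promoter, so the contributions of these cannot be told apart in the direct comparison.

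18S rRNA is released from its precursor in the last steps of small subunit assembly. The precursor, 20S pre-rRNA, still carries the first part of internal transcribed spacer 1 (ITS1), up to an earlier cut called the A2 site, and the endonuclease Nob1 makes the final cut that leaves the mature 3' end. Pno1 sits on the RNA next to that cut until the kinase Rio1 takes part in removing it, while Dim1 methylates a pair of adjacent adenosines a short way upstream, and Rps14 is a ribosomal protein of the platform, close to the 3' end. In the method, called 3'-RACE, a linker was joined to the 3' end of RNA from purified 40S subunits, and the stretch between an 18S primer and the linker was sequenced.

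The deposited values are read depths per nucleotide of the 35S precursor, in which mature 18S rRNA occupies 701 to 2500 and ITS1 follows directly. Position 2500 is called 0, positions upstream of it are negative (truncated ends) and positions in ITS1 are positive (extended ends). An end was counted where depth dropped and did not recover further 3', from position -50 to the end of ITS1. The 3 Pno1-KKKF libraries held 2721294 to 3086837 ends and the Rps14 + Dim1 libraries 2944052 and 3518330. The most frequent end was position 0 in each library. The position of highest depth was -17 in each library, so no end further upstream can be seen. The widest 95% Wilson interval of a library's truncated, extended or total share of ends other than 0 reached 0.0137 percentage points to either side. In a library 3 ends correspond to 0.853 to 1.102 ends per 1000000 ends (EPM). Both figures cover counting error only, since PCR copies are not independent molecules. Intervals of the other shares below, such as those among extended ends alone, were not computed.

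Reads skipped nucleotides around the adenosines that Dim1 methylates far less often in Pno1-KKKF libraries than in Rps14 + Dim1 libraries, which separates the libraries by their Dim1 label. At position -21, nucleotide 1779 of 18S, 0.907%, 0.912% and 1.19% of reads skipped the nucleotide in Pno1-KKKF libraries, against 10.1% and 11.6% in Rps14 + Dim1 libraries. The means were 10.9-fold apart, and at all 6 positions from -23 to -18 every Pno1-KKKF library lay below both Rps14 + Dim1 libraries. Depth dips went the other way, with all Pno1-KKKF libraries above both, at 23 of 27 positions from -50 to -24. From -17 to -8 this was so at 2 of 10 positions. Neighbouring positions are covered by largely the same reads, so these counts are not separate observations. At -21 the exact permutation test over 3 against 2 libraries gave its smallest possible value, p = 0.1 (two-sided, adjusted p = 0.159 over 43 positions). The Pno1 + Dim1-E85A libraries skipped -21 in 1.60%, 0.875% and 0.506% of reads. These skips lie upstream of the position of highest depth, so they are not among the truncated ends below.

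**Figure D1:**
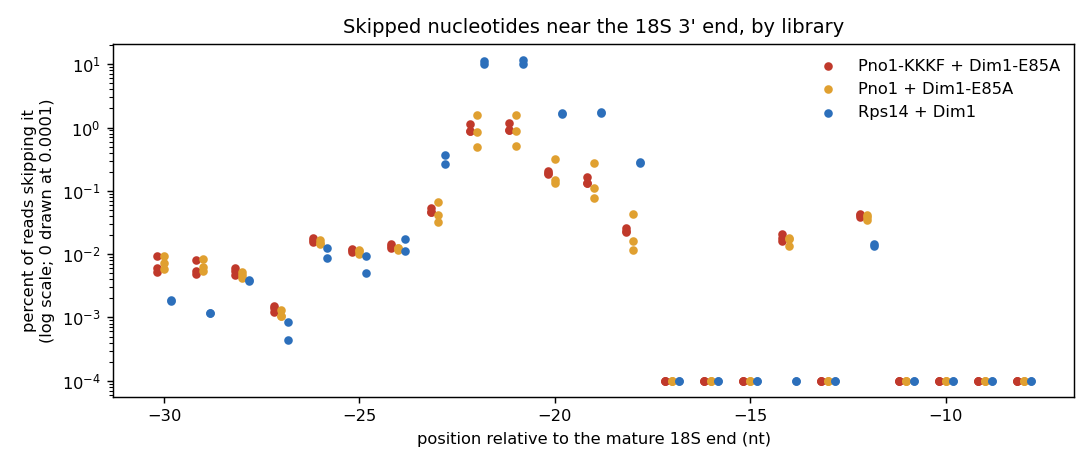
Percent of reads that skip each nucleotide (y axis, log scale) from -30 to -8 relative to the mature 18S end (x axis, nt). It is taken as the dip of depth below its later maximum. Each point is a library, and values of 0 are drawn at 0.0001. From -23 to -18 the Rps14 + Dim1 points lie above all Dim1-E85A points, reaching 11.6% at -21. At -14 and -12, and from -30 to -25, the order is turned round.

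Nearly all 18S rRNA ended at position 0 in both strains. The share was 98.8%, 98.7% and 98.6% in the Pno1-KKKF libraries, against 99.2% and 99.0% in the Rps14 + Dim1 libraries. All other ends together, called miscleaved here, made up 1.29% ± 0.142 of ends in Pno1-KKKF libraries (SD, n = 3), against 0.922% ± 0.150 in Rps14 + Dim1 libraries (SD, n = 2). The odds of such an end against an end at 0 were 1.41-fold in Pno1-KKKF (log2 difference 0.50, SE 0.19), and the groups did not overlap. With 3 against 2 libraries no exact permutation p below 0.1 is possible, and p was 0.1 (two-sided, adjusted p = 0.1 over 3 shares).

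Truncated ends were 12.8-fold as frequent as extended ends in Pno1-KKKF and 25.0-fold in Rps14 + Dim1 (means over libraries), so they set the total. They amounted to 1.09%, 1.15% and 1.36% in Pno1-KKKF libraries, against 0.781% and 0.992% in Rps14 + Dim1 libraries. Each Pno1-KKKF library thus lay above both Rps14 + Dim1 libraries, with 1.36-fold odds (log2 difference 0.45, SE 0.20, exact permutation p = 0.1). The size depends on the Rps14 + Dim1 library, with a log2 difference of 0.27 without replicate 1 and 0.62 without replicate 2. When every drop of depth is counted as an end, skipped nucleotides count as truncated ends and the order turns round, with 2.34% ± 0.286 truncated ends in Pno1-KKKF (SD, n = 3), against 10.7% ± 1.02 in Rps14 + Dim1 (SD, n = 2), a log2 difference of -2.33.

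Extended ends separated the strains by more. They made up 0.0809%, 0.109% and 0.0944% of ends in Pno1-KKKF libraries, against 0.0351% and 0.0358% in Rps14 + Dim1 libraries. The lowest Pno1-KKKF library was thus more than the spread of either group above the Rps14 + Dim1 libraries. Odds were 2.66-fold (log2 difference 1.41, SE 0.13, exact permutation p = 0.1, the smallest possible, adjusted p = 0.1). The Pno1 + Dim1-E85A libraries had 0.0830%, 0.0743% and 0.0779%.

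**Figure D2:**
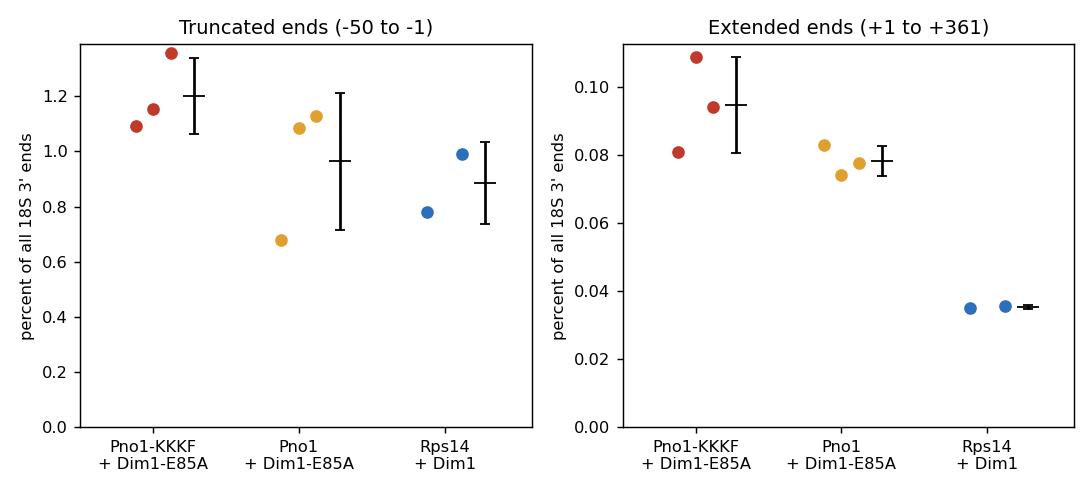
Percent of all 18S 3' ends that were truncated (left) or extended (right), by strain. Points are libraries, and the bar beside them is the mean ± SD (n = 3, 3 and 2). The Pno1-KKKF points span 1.09% to 1.36% (truncated) and 0.0809% to 0.109% (extended), above the Rps14 + Dim1 points at 0.781% and 0.992% and at 0.0351% and 0.0358%.

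The ends were summed over fixed regions and tested with edgeR's quasi-likelihood test, with Benjamini-Hochberg adjustment over the 9 regions that held any end. Of these, 5 were more frequent in Pno1-KKKF at an adjusted p under 0.05, which is 55.6% of those tested, and 0 were less frequent. The regions that rose were -2 to -1 and all 4 regions of ITS1 from +3 to +220. The regions -50 to -11, -10 to -3 and +1 to +2 and position 0 did not pass. The exact permutation test gave its smallest possible p of 0.1 for each of the 5 (adjusted p = 0.133 over 8 regions). It gave the same for -10 to -3, which edgeR did not call. Per position, edgeR called 36 of 53 tested positions (67.9%), 35 higher in Pno1-KKKF (66.0%) and 1 lower (1.89%). The median log2 fold change over all 53 was 1.88. The filter for testing can be met by a single strain, so positions near 0 in the other strain shape these shares and this median. Scaled by TMM factors, 23 were called higher and 5 lower, and with DESeq2's default size factors 20 higher and 9 lower. These scalings moved position 0 itself by -0.80 and -0.96 on the log2 scale, so the values below are relative to all ends, of which position 0 is nearly the whole.

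Inside mature 18S rRNA, both strains favoured the same places. The most frequent ends other than 0 were -4, -1 and -9 in both. Together these held 81.8% ± 0.290 of truncated ends in Pno1-KKKF (SD, n = 3) and 82.9% ± 1.27 in Rps14 + Dim1 (SD, n = 2), and the groups overlapped. Next came -7 and -3 in Pno1-KKKF, and -8 and -7 in Rps14 + Dim1. Ends at -4 and -1 were about equally frequent in Pno1-KKKF (0.441% and 0.440% of ends). At -4 there were 3873, 4058 and 5293 EPM in Pno1-KKKF, against 3023 and 3873 in Rps14 + Dim1. Pno1-KKKF replicate 6 and Rps14 + Dim1 replicate 2 were thus almost level there, and the difference did not pass (log2 fold change 0.35, SE 0.17, edgeR adjusted p = 0.115). Under DESeq2's default size factors -4 passed as lower in Pno1-KKKF (-0.60, adjusted p = 0.00369).

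The last nucleotides before the mature end differed more clearly. At -1 there were 4103, 4508 and 4596 EPM in Pno1-KKKF, against 3052 and 3247 in Rps14 + Dim1. All 3 Pno1-KKKF libraries were higher, and ends at -1 were 1.40-fold as frequent (log2 fold change 0.48, SE 0.08, edgeR adjusted p = 0.0025). At -2 the values were 299.7, 426 and 419 EPM in Pno1-KKKF and 192 and 210 in Rps14 + Dim1 (log2 fold change 0.92, SE 0.22, edgeR adjusted p = 0.0107). At -3 they were 356, 430 and 425 EPM in Pno1-KKKF and 186 and 198 in Rps14 + Dim1 (log2 fold change 1.07, SE 0.18, edgeR adjusted p = 0.0025). The region -2 to -1 made up 0.478% ± 0.0333 of ends in Pno1-KKKF (SD, n = 3) and 0.335% ± 0.0151 in Rps14 + Dim1 (SD, n = 2), with a log2 fold change of 0.51 (SE 0.08, edgeR adjusted p = 0.00629). Under TMM factors this region was at 0.076 and under DESeq2's default size factors at 0.0033, where position 0 in the same region fits was at -0.44 and -0.51. Under TMM factors none of -3, -2 and -1 was called, at 0.28, 0.13 and -0.31. Under DESeq2's default size factors -3 and -2 were not called, at 0.11 and -0.048, and -1 passed as lower in Pno1-KKKF, at -0.47 (adjusted p = 0.00458). All of these stayed above position 0. The call at -2 was lost without Rps14 + Dim1 replicate 1 (edgeR adjusted p = 0.0584).

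Further upstream the libraries varied within strains. The region -10 to -3 made up 0.635%, 0.644% and 0.840% of ends in Pno1-KKKF, against 0.441% and 0.630% in Rps14 + Dim1. The groups nearly touch, and the difference did not pass (log2 fold change 0.40, SE 0.21, edgeR adjusted p = 0.156). The value rests on which Rps14 + Dim1 library is used, since without replicate 2 it was 0.68 (edgeR adjusted p = 0.018) and without replicate 1 it was 0.16. Ends at -9 numbered 973, 827 and 1217 EPM in Pno1-KKKF, against 464 and 1010 in Rps14 + Dim1. Ends at -10 numbered 135, 114 and 166 EPM in Pno1-KKKF, against 41.8 and 162 in Rps14 + Dim1. Replicate 1 was the low library in both cases, and Pno1 + Dim1-E85A replicate 6 was similarly low, with 477 and 34.6 EPM. The log2 fold changes were 0.45 at -9, 0.44 at -10, 0.54 at -7 and -0.03 at -8, none of them past the threshold. Position -8 was called lower in Pno1-KKKF under edgeR's TMM factors (-0.78, adjusted p = 0.0139) and DESeq2's default size factors (-0.96, adjusted p = 0.000633). Position 0 was at -0.80 and -0.96 under these scalings. Without Rps14 + Dim1 replicate 2, edgeR called -10, -9, -7 and -4, with log2 fold changes of 1.73, 1.11, 1.03 and 0.54.

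From -17 to -11, 6 positions were tested, and -13 was called higher and -14 lower in Pno1-KKKF. At -14 there were 0 ends in the 3 Pno1-KKKF libraries, against 10.9 and 15.6 EPM in Rps14 + Dim1. That 0 is no measurement, because 0.0164% to 0.0208% of reads skipped -14 in Pno1-KKKF and 0% in Rps14 + Dim1. Ends of this size at a position with such a dip are counted at the next position upstream, here -15. Ends at -13 numbered 12.3, 20.9 and 10.3 EPM in Pno1-KKKF, against 6.11 and 0.568 in Rps14 + Dim1 (edgeR adjusted p = 0.0433). Ends at -12, where depth dipped in every library, are likewise counted at -13. The Rps14 + Dim1 libraries differed from each other at -13 by more than the higher of them differed from the lowest Pno1-KKKF library.

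Just beyond the mature end the strains were close. Ends at +1 numbered 203, 214 and 242 EPM in Pno1-KKKF, against 190.2 and 193 in Rps14 + Dim1. All 3 Pno1-KKKF libraries were higher by a small step, and the log2 fold change of 0.20 (SE 0.19) did not pass (edgeR adjusted p = 0.348). Ends at +2 had a log2 fold change of 0.55 (SE 0.33), and the groups overlapped. Both turned negative under TMM factors (-0.60 and -0.18) while staying above position 0. Under DESeq2's default size factors +1 passed as lower in Pno1-KKKF (-0.76, adjusted p = 0.000197). The region +1 to +2 made up 0.0267% ± 0.00270 of ends in Pno1-KKKF (SD, n = 3) and 0.0224% ± 0.00123 in Rps14 + Dim1 (SD, n = 2), at an edgeR adjusted p of 0.164 (0.0465 without Pno1-KKKF replicate 6).

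From +3 to +10, 6 of 8 positions rose and 0 fell, a share near the 66.0% called higher over all positions tested, and their median log2 fold change of 1.14 was below the 1.88 of all positions. The region held 156, 198 and 197 EPM in Pno1-KKKF, against 84.9 and 88.4 in Rps14 + Dim1, and each Pno1-KKKF library lay well above both. Its log2 fold change was 1.08 (SE 0.18, edgeR adjusted p = 0.00629). Positions +3, +4 and +5 had log2 fold changes of 0.78, 0.93 and 0.71, with edgeR adjusted p of 0.0234, 0.0171 and 0.119. The calls at +3 and +4 are weak. Leaving out Pno1-KKKF replicate 7 or 8 or Rps14 + Dim1 replicate 1 ended both, and Rps14 + Dim1 replicate 2 ended the call at +3 as well. Under DESeq2's default size factors +3, +4 and +5 turned to -0.18, -0.028 and -0.26, above position 0 at -0.96. At +10 there were 41.8, 54.4 and 59.5 EPM in Pno1-KKKF, against 23.1 and 17.3 in Rps14 + Dim1 (log2 fold change 1.36, SE 0.29, edgeR adjusted p = 0.00599). That call was lost under TMM factors (0.55) and under DESeq2's default size factors (0.38).

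The largest difference of any region with over 10 ends in each library lay at +11 to +50. It held 351, 499 and 373 EPM in Pno1-KKKF, against 27.2 and 17.1 in Rps14 + Dim1. The lowest Pno1-KKKF library thus held over 10 times as many as the highest Rps14 + Dim1 library. Ends were 18.5-fold as frequent (log2 fold change 4.21, SE 0.33, edgeR adjusted p = 0.000699), and leaving out any single library kept the log2 fold change between 3.90 and 4.58. Every position tested here, the 20 from +11 to +30, was called higher, with a median log2 fold change of 5.05 against 1.88 over all positions tested. From +14 to +30 neither Rps14 + Dim1 library held 10 ends at any position, so these passed the filter through Pno1-KKKF alone. The count called, both medians and the edgeR p-values at these positions are shaped by this and add no separate support. In each of the 22 positions from +11 to +32 all 3 Pno1-KKKF libraries lay above both Rps14 + Dim1 libraries. The same held at 32 of all 50 positions from +1 to +50, and at 3 of 18 from +33 to +50.

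Within this region the ends fell into a few clusters. The first spanned +10 to +13, with over 2 EPM at each position in every library of both strains. At +11 there were 23.6, 22.05 and 20.98 EPM in Pno1-KKKF, against 4.76 and 3.41 in Rps14 + Dim1 (log2 fold change 2.45, SE 0.28, edgeR adjusted p = 0.000804). The next lay at +15 to +20, where Rps14 + Dim1 was close to the limit of counting. Position +18 held 202 ends over the 3 Pno1-KKKF libraries and 1 over both Rps14 + Dim1 libraries, a ratio per total ends of 149.8 with a 95% exact counting interval from 26.6 to 5945. Position +19 held 236 and 4 ends, a ratio of 43.7 (16.9 to 162), and +20 held 179 and 8, a ratio of 16.6 (8.24 to 39.0). Positions +15, +16 and +17 held 82, 107 and 120 ends in Pno1-KKKF and 1, 3 and 1 in Rps14 + Dim1, with ratios of 60.8 (10.6 to 2431), 26.4 (8.81 to 130.3) and 89.0 (15.7 to 3543). All of these passed in edgeR (adjusted p of at most 0.000866), but these p-values add no separate support. The positions were named for their small p and met the filter through Pno1-KKKF alone. The sizes of these ratios rest on very few Rps14 + Dim1 ends, as at +19, where all 4 came from replicate 2. Their counting intervals, like those below, pool the libraries of a strain and leave out the spread between libraries.

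A further cluster lay at +24 to +27 and peaked at +25 in Pno1-KKKF. Pno1-KKKF libraries held 51.8, 102 and 82.9 EPM at +25, against 0 and 0.568 in Rps14 + Dim1 libraries. In counts this was 679 ends against 2, a ratio of 252 with a counting interval from 69.4 to 2083 (edgeR adjusted p = 0.000804). Position +24 held 87 ends in Pno1-KKKF and 0 in Rps14 + Dim1, at least 10.7-fold higher against a floor of 3 ends per library (edgeR adjusted p = 0.000804). With every drop of depth counted as an end, its log2 fold change was 5.79 in place of 7.93. The size at +24 thus depends on how ends are counted. Position +26 held 440 and 5 ends, and +27 held 164 and 2, a ratio of 60.8 (16.6 to 506) for the second (edgeR adjusted p = 0.000873). As in the cluster before, these p-values add no separate support, because the filter was met through Pno1-KKKF alone. The 4 positions together, singled out after their values were seen, held 113, 214 and 151 EPM in Pno1-KKKF, against 1.70 and 1.14 in Rps14 + Dim1. Beyond +32 ends became rare in every library, and from +33 to +50 Rps14 + Dim1 was at 0 in 16 of 18 positions.

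**Figure D3:**
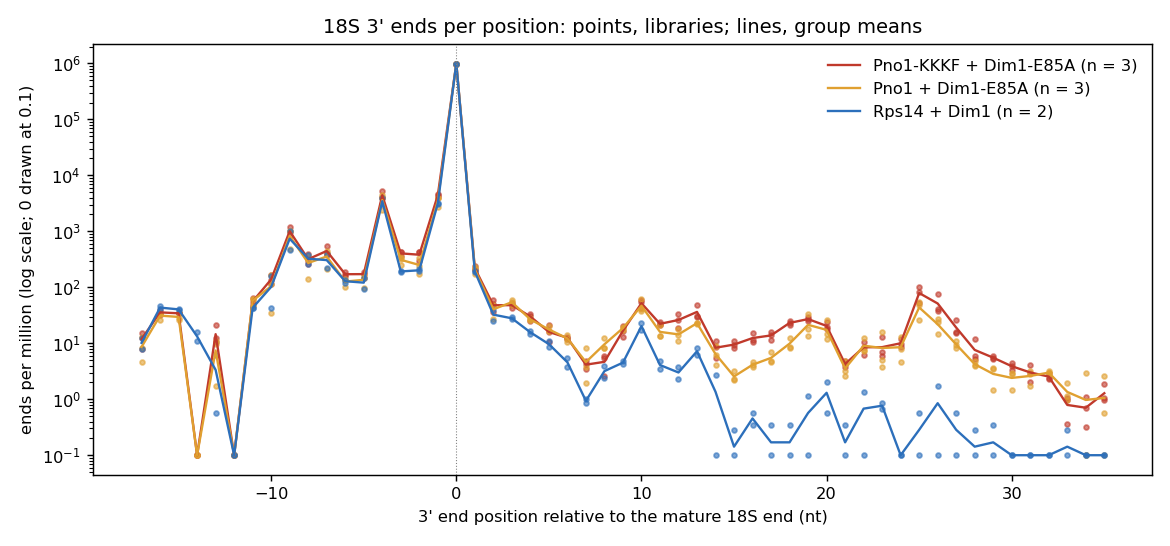
Ends per 1000000 ends (EPM) at each position from -17 to +35 (x axis, nt from the mature 18S end; y axis, log scale, 0 drawn at 0.1). Points are libraries and lines are group means (n = 3, 3 and 2). On this log scale the lines run close together from -11 to +2 and lie far apart from +15 to +19 and from +24 on. At +25 the Pno1-KKKF libraries sit at 51.8 to 102 EPM and the Rps14 + Dim1 libraries at 0 and 0.568.

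**Figure D4:**
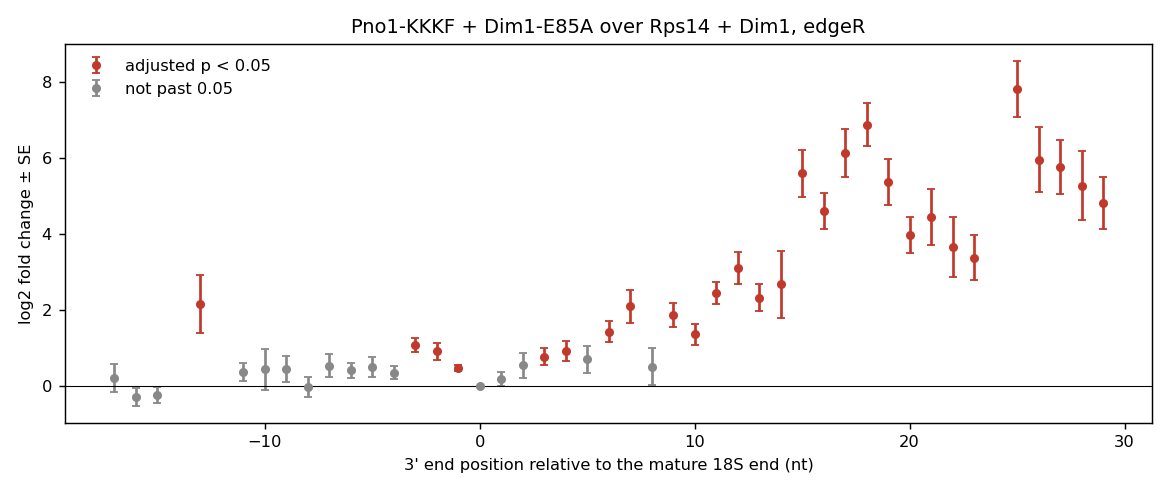
Log2 fold change ± SE (y axis) of ends in Pno1-KKKF + Dim1-E85A over Rps14 + Dim1 at each tested position from -17 to +30 (x axis, nt), with positions past an edgeR adjusted p of 0.05 in red. Positions with 0 ends in a strain (-14, +24 and +30) are left out. Values lie between -0.03 and 0.54 from -11 to -4 and exceed 1 at every position from +9 on. The highest are 7.82 at +25 and 6.88 at +18.

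The make-up of the extended ends differed along with their number. In Pno1-KKKF 29.5%, 25.0% and 30.9% of extended ends lay at +1 or +2, against 61.4% and 64.9% in Rps14 + Dim1. The share at +11 to +50 was 43.4%, 45.8% and 39.5% in Pno1-KKKF, against 7.75% and 4.76% in Rps14 + Dim1. The median extension was 11, 13 and 10 nt in the Pno1-KKKF libraries and 1 nt in both Rps14 + Dim1 libraries. The groups did not overlap in any of these, each at the smallest possible exact permutation p of 0.1 (adjusted p = 0.2 over 12 measures of composition). The shares of truncated ends at -4, -1 and -9 overlapped between the strains, so truncated ends showed no such split by these measures.

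**Figure D5:**
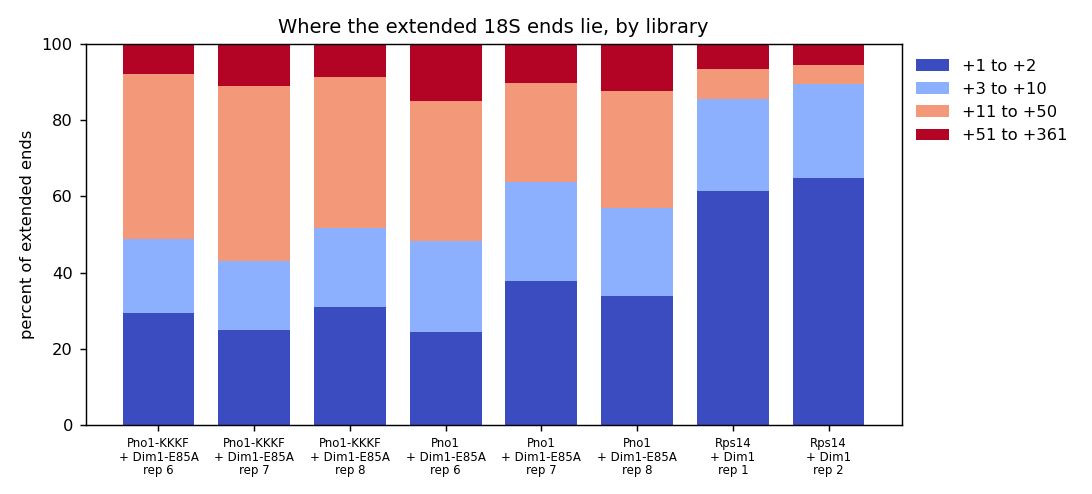
Where the extended ends of each library lie, in percent of that library's extended ends (y axis, stacked bars adding to 100%). The share at +11 to +50 is 39.5% to 45.8% in the Pno1-KKKF libraries and 4.76% and 7.75% in the Rps14 + Dim1 libraries. The share at +1 to +2 is 25.0% to 30.9% and 61.4% to 64.9%.

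Long extensions were rare in both strains and more frequent in Pno1-KKKF. The region from +51 up to +200 held 47.0, 100.3 and 68.5 EPM in Pno1-KKKF, against 21.1 and 20.2 in Rps14 + Dim1 (log2 fold change 1.80, SE 0.39, edgeR adjusted p = 0.0127). The call was lost without Pno1-KKKF replicate 8 (edgeR adjusted p = 0.0514). Most of these ends fell at +71 to +74, with 39.2, 81.6 and 55.4 EPM in Pno1-KKKF and 18.0 and 14.8 in Rps14 + Dim1. The position +74 is 136 nt from where reads start at -61, at the same place in all 8 libraries of this protocol. Depth fell to 29, 46 and 39 reads at +80 in Pno1-KKKF libraries and was higher again at +120, with 70, 80 and 56 reads. Whether +71 to +74 are ends of RNA or the reach of a read was not tested, and the number of long extensions is limited by this.

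The region +200 to +220 surrounds the A2 site, the 3' end of 20S pre-rRNA. It held 51, 57 and 39 ends in Pno1-KKKF libraries, against 6 and 0 in Rps14 + Dim1 libraries. All 3 Pno1-KKKF libraries were far above both, with a ratio per total ends of 18.2 (95% exact counting interval 8.15 to 50.3) and an edgeR adjusted p of 0.0084. Rps14 + Dim1 replicate 2 held 0 of 3518330 ends there, which allows up to 0.853 EPM. Without that library the log2 fold change was 3.03 in place of 4.12, and edgeR's call was kept (adjusted p = 0.00332). Nearly all fell within a few nucleotides of +210, with 139 of the 147 ends in Pno1-KKKF and all 6 in Rps14 + Dim1. From there to the end of ITS1 no end was found in any of the 8 libraries, where 3 ends would be 0.853 to 1.102 EPM. Depth past ITS1, outside the stretch counted, was 1, 3 and 1 reads at most in the Pno1-KKKF libraries and 0 in both Rps14 + Dim1 libraries.

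Values of the Pno1 + Dim1-E85A libraries place these differences beside those of the unmutated Pno1. Both comparisons use the same Rps14 + Dim1 libraries, so they are not independent, and the difference between Pno1-KKKF and Pno1 was not tested here. In 1 edgeR fit of all 8 libraries, +3 to +10 had a log2 fold change over Rps14 + Dim1 of 1.08 in Pno1-KKKF and 1.13 in Pno1. The region +11 to +50 had 4.21 in Pno1-KKKF and 3.48 in Pno1, and +200 to +220 had 4.12 in Pno1-KKKF and 3.504 in Pno1 (edgeR adjusted p of at most 0.00315 for all of these). The region from +51 up to +200 had 1.80 in Pno1-KKKF and 2.08 in Pno1 (edgeR adjusted p of 0.00623 and 0.00315). The region -2 to -1 had 0.51 in Pno1-KKKF (edgeR adjusted p = 0.0363) and 0.16 in Pno1 (edgeR adjusted p = 0.544). Ends at +25 numbered 51.8, 102 and 82.9 EPM in Pno1-KKKF, 48.9, 26.5 and 55.5 in Pno1, and 0 and 0.568 in Rps14 + Dim1. The Dim1-E85A libraries of either Pno1 thus lay above both Rps14 + Dim1 libraries in the sum of each region from +3 to +220. This did not hold at every position. At +8 Pno1-KKKF replicate 6 had 2.59 EPM and Rps14 + Dim1 replicate 2 had 3.98. At -2 to -1 the Pno1 libraries held 2896, 4145 and 4209 EPM and overlapped the 3244 and 3457 of Rps14 + Dim1.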

How the data were processed

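Per the labels' protocols, 18S rRNA from purified 40S subunits was dephosphorylated, ligated to the linker, reverse transcribed, amplified from an 18S primer and, for these libraries, cleaned up on AMPure XP beads. The authors deposited whole-number counts of reads per nucleotide (read depth) along the 35S precursor (6858 nt), which is what the values are per the file headers. Per the submitters' processing notes, the tools included UMI-tools 1.1.2, Bowtie2 2.2.9, bedtools 2.17.0, SAMtools 1.1.0, Trim Galore 0.6.1, FastQC 0.11.4 and cutadapt 3.5. The sources used here state neither the settings nor whether UMIs were collapsed. Titles in the headers tied the columns to samples. RefSeq's R64 gene table gave the place of 18S and ITS1 in the precursor.

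Ends were lasting drops of depth, that is, drops of the running maximum taken from the 3' side. Shares are of ends from -50 to the end of ITS1. Log2 odds against the mature end (0.5 added to each count) were compared by a two-sided exact permutation test over 10 arrangements. Positions with at least 10 ends in at least 2 of the 5 libraries, and the ends summed over fixed regions, were tested with edgeR 4.0.16 in R 4.3.3 (quasi-likelihood, total ends as library size, Benjamini-Hochberg at 0.05), with DESeq2 1.42.0 as an alternative. Its SE is the log2 fold change divided by the root of F. Both steps were tested on simulated data. The simulated skips lay upstream of all simulated ends, so skips among the ends, as at -14 and -12, were not covered. The simulated counts changed fewer positions than were called here and had a floor, so strains near 0 were not covered. Other steps used Python 3.11.15, numpy 2.4.6 and scipy 1.17.1. The rule for named positions took 0, -4 to +5, -10 and +10, further the 5 ends that followed the mature one in frequency in each strain, and, in either direction, the 10 called positions of smallest p at most. Others were chosen after their values were seen, as +6 to +9, +12 to +14, +26, -13 and +71 to +74 were where printed. The members, regions and tests were chosen with earlier results of these data known. The labels call the libraries biological replicates, and libraries of 1 strain differed by more than counting noise. All p-values rest on this small number of libraries.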

Additional observations from a re-analysis of the deposited data

How the results depend on the processing

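The extended difference kept its direction under all alternatives run, with a log2 difference of 1.36 to 2.37, and 1.31 to 1.52 with any single library left out. The miscleaved and truncated differences were 0.50 and 0.45 and kept their direction except where each positive drop counts as an end, which gave -2.28 and -2.33, because skipped nucleotides then count as truncated ends. With single libraries left out they ranged from 0.33 to 0.67 and from 0.27 to 0.62. Positions called numbered 36, and 28 to 52 under the other alternatives, 30 to 36 with single libraries left out. Regions called numbered 5 higher and 0 lower, and 4 to 6 higher with single libraries left out. They were 4 higher and 2 lower under TMM factors, 4 higher and 1 lower under DESeq2's default size factors and 6 higher and 1 lower with each positive drop as an end. No paired analysis was possible because the replicate numbers of the strains compared (6 to 8 against 1 and 2) share none.

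TMM factors and DESeq2's default size factors lowered the log2 fold changes of the named positions by unequal amounts, and small ones changed sign. Under TMM factors -10, -9, -7, -4, -1, +1, +2 and +5 became -0.18, -0.24, -0.18, -0.41, -0.31, -0.60, -0.18 and -0.037. Under DESeq2's default size factors -10, -9, -7, -4, -2 and -1 became -0.44, -0.46, -0.39, -0.60, -0.048 and -0.47, and +1 to +5 became -0.76, -0.41, -0.18, -0.028 and -0.26. The region -10 to -3 became -0.025 and -0.10 under these scalings and +1 to +2 became -0.18 and -0.26. With each positive drop as an end, position 0 became 0.13 and -8 became 0.11. With single libraries left out, -10 ranged from -0.22 to 1.73 and -9 from -0.0064 to 1.11, both lowest without Rps14 + Dim1 replicate 1. Position -8 ranged from -0.27 to 0.26 and the region -50 to -11 from -0.047 to 0.040, but that region was called lower under TMM factors (-0.45, adjusted p = 0.0277) and with each positive drop as an end (-3.09). The cause of the other moves was not tested. All these values are log2 fold changes of Pno1-KKKF over Rps14 + Dim1. Depth limits Rps14 + Dim1 beyond +14, where most positions held under 10 ends.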

Other observations

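Upstream of the stretch at -23 to -18, depth dipped further below its later maximum in Pno1-KKKF than in Rps14 + Dim1 at most nucleotides. Whether reads skipped these nucleotides or did not cover them was not tested. At 23 of 27 positions from -50 to -24 all 3 Pno1-KKKF libraries lay above both Rps14 + Dim1 libraries, and at 0 of 27 all lay below. Neighbouring positions are covered by largely the same reads, so these are not separate observations. From -17 to -8 all 3 lay above both at 2 of 10 positions, and the other 8 had no dips in these libraries. All 6 positions from -23 to -18 went the other way. At -12, in the last nucleotides of 18S rRNA, the dip was 0.0427%, 0.0412% and 0.0382% in Pno1-KKKF, against 0.0145% and 0.0136% in Rps14 + Dim1. At -14 it was 0.0208%, 0.0180% and 0.0164% in Pno1-KKKF and 0% in both Rps14 + Dim1 libraries. The Pno1 + Dim1-E85A libraries had 0.0340% to 0.0409% at -12 and 0.0137% to 0.0178% at -14. At each position the exact permutation p cannot go below 0.1. The levels were measured as dips of depth below a later maximum, and their part in the differences of truncated ends was not tested.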
